A study of Mus musculus with 6 samples.

Results

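The cells described here are barcodes that carried messenger RNA of intestinal epithelial genes inside mouse pancreatic tumours. A barcode was a member when it passed 3 quality limits (500 or more UMIs, which are unique molecular identifiers that each count 1 captured RNA molecule, 250 or more detected genes, and a mitochondrial share of no more than 20%). It also had to hold at least 5 UMIs summed over Lypd8, Rbp2, Alpi, Fabp2, Spink4 and Muc2, at least 3 UMIs summed over Epcam, Krt8, Krt18, Krt19 and Lgals4, and no UMI of Ptprc, the gene of the leukocyte antigen CD45. This rule found 1217 members among the 39928 barcodes that passed the quality limits, of 44819 barcodes in all, and among 14177 kept barcodes that met the epithelial and Ptprc conditions. The 6 intestinal genes chose the members, so their levels are given as a description, and no member was compared with another cell by a test.

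The tumours came from KPC mice, which carry p53LSL.R172H/+ and a Pdx1-Cre transgene (tg/+) among their alleles, and every group shares the same genotype. Mice were assigned at random once ultrasound showed a tumour 4 to 7 mm across, and received either vehicle (corn oil and water, 3 mice) or trametinib at 1 mg/kg with hydroxychloroquine at 40 mg/kg by mouth (3 mice). Tumours were taken 24 h later, dissociated and profiled by droplet single-cell RNA sequencing, with 1 library for each mouse. Trametinib inhibits the kinase MEK and hydroxychloroquine blocks lysosomal degradation and autophagy. The Pdx1 promoter that drives Cre is active in the pancreas and also in the duodenum and distal stomach. The sources used here give neither age nor sex.

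In a normal gut the absorptive cell and the goblet cell are the main products of the crypt. Rbp2 (a retinol-binding protein), Fabp2 (a fatty acid-binding protein) and Alpi (an alkaline phosphatase of the brush border) belong to absorptive cells of the small intestine, Lypd8 to absorptive cells of the colon, and Muc2 (the gel-forming mucin) and Spink4 to goblet cells. The homeobox factors Cdx1 and Cdx2 give intestinal epithelium its identity, and posterior Hox genes such as Hoxb13 are known from the distal colon. Pancreatic tumours of the classical type often take up genes of the stomach surface, the trefoil factors Tff1 and Tff2 and the gastrokines among them.

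Members lay in all 6 tumours, with the largest shares in vehicle 1 and treated 3. They made up 7.59% of kept barcodes in vehicle 1 (166 cells, exact 95% Clopper-Pearson interval 6.52 to 8.78%), 2.81% in vehicle 2 (293 cells, 2.50 to 3.15%) and 0.911% in vehicle 3 (104 cells, 0.745 to 1.10%). In the treated tumours the shares were 3.33% (137 cells, 2.81 to 3.93%), 2.48% (134 cells, 2.08 to 2.93%) and 6.0% (383 cells, 5.43 to 6.61%) in mice 1, 2 and 3. The groups overlapped, and the intervals cover counting error only. Treated tumours averaged 3.94% ± 1.84 and vehicle tumours 3.77% ± 3.44 (SD, n = 3 mice each, exact two-sided permutation test p = 1, where 3 against 3 mice cannot go below 0.1). The difference of 0.163 percentage points turned to -1.27 without vehicle 3, to -0.868 without treated 3 and to -0.317 without vehicle 2, and was 2.07 without vehicle 1. As a share of epithelial cells, treated 3 (34.5%) stood above vehicle 1 (23.1%) and the other 4 tumours lay between 3.39 and 7.34%, a difference between groups of 4.86 points (exact permutation test p = 0.6). Epithelial cells here are all kept barcodes that met the epithelial and Ptprc conditions. In treated 3 and vehicle 1 part of them held much RNA of fibroblasts or plasma cells, as given further on.

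**Figure D1:**
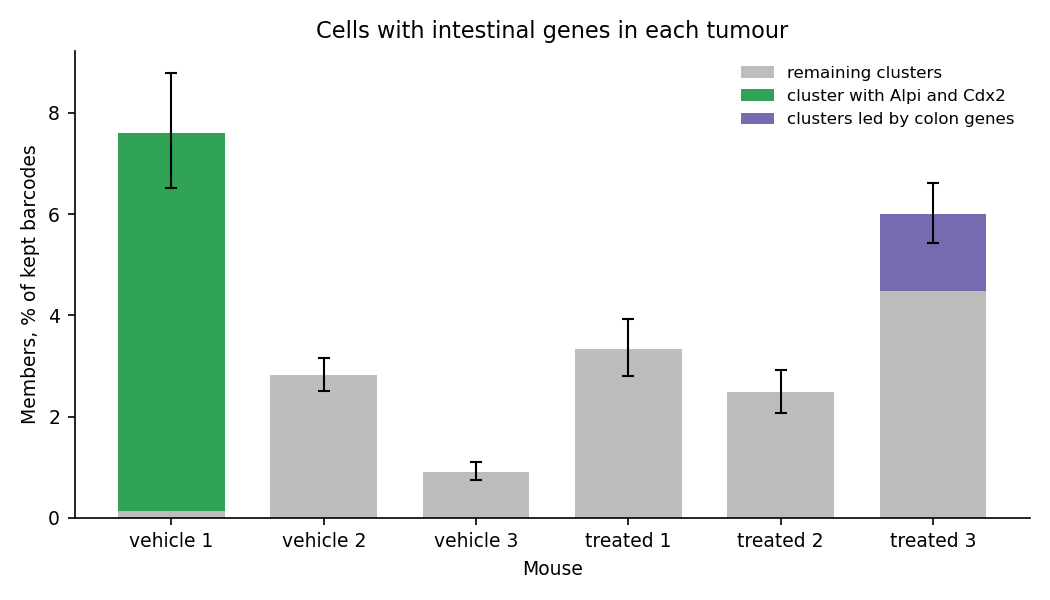
Share of members among kept barcodes (vertical axis, percent) in each of the 6 mice, split by the sets of clusters described in the text; error bars are exact 95% binomial intervals of the whole share. Vehicle 1 is made almost wholly of cells from the cluster with Alpi and Cdx2. The clusters labelled as led by colon genes, which were picked by their Hoxb13 level, lie in treated 3 alone and give 97 of its 383 members. The remaining clusters give the other 286 members of treated 3 and fill the other 4 tumours.

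Members were deeply sequenced cells, so depth moves with membership. Their median depth ran from 24076 UMIs in vehicle 1 to 45229 UMIs in treated 3, against 3222 to 11335 UMIs over all kept barcodes of a tumour. When every barcode was thinned to 2000 UMIs, 32, 4 and 18 barcodes met the rule in vehicle 1, 2 and 3, and 7, 4 and 94 in treated 1, 2 and 3, of which 6, 4 and 85 were members at full depth. At equal depth vehicle 1 (2.12%) and treated 3 (1.71%) thus stood above the other 4 tumours (0.0598 to 0.249%). Barcodes under 2000 UMIs were left out, 674, 3723 and 4182 in vehicle and 852, 1525 and 890 in treated tumours. Of the kept barcodes with an intestinal sum of at least 5, Ptprc removed 142, 64 of them in treated 3 and 47 in vehicle 2. Whether those met the epithelial condition was not counted. Among barcodes without Ptprc, the epithelial condition removed 6. Over the 15 pairs of libraries 119 kept barcodes recurred, and none was a member in both libraries. A member's barcode recurred among other kept barcodes in 4 pairs, 3 times between treated 3 and vehicle 3 and 1 time each between vehicle 2 and treated 2, vehicle 2 and treated 3, and vehicle 3 and treated 1.

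Most members rested on few of the 6 intestinal genes. Of 1217 members, 470 (38.6%) held UMIs of a single rule gene, 240 held 3 or more, and none held all 6. Rbp2 gave the most UMIs in 624 members, Spink4 in 449, Lypd8 in 112, Muc2 in 17, Alpi in 15 and Fabp2 in 0. At the lower edge of the rule, the members with a sum of 5 (21 to 63 cells in a tumour) had 57.4 to 162 CPM of Rbp2 (the gene's UMIs per 1000000 UMIs of the summed cells), and the epithelial cells with a sum of 4 just outside it (24 to 87 cells) had 44.4 to 166 CPM.

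Rbp2 was carried by the members of every tumour. Its level in members was 841, 137 and 79.7 CPM in vehicle 1, 2 and 3, and 198, 192 and 143 CPM in treated 1, 2 and 3. Vehicle 1 stood far above the other 5 tumours, which lay within 79.7 to 198 CPM. Alpi followed the same tumour, at 206 CPM in vehicle 1, 5.26 and 5.70 CPM in treated 1 and 2, and 0.581 CPM or less in vehicle 2, vehicle 3 and treated 3. Fabp2 was at 26.3 CPM in vehicle 1 and 12.0 CPM in treated 3, and at 6.48 CPM or less in the other 4.

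The goblet genes of the rule did not follow Rbp2 and Alpi. Spink4 was at 572 CPM in vehicle 3 and 528 CPM in treated 3, at 149 to 172 CPM in vehicle 2, treated 1 and treated 2, and at 0.370 CPM in vehicle 1, whose 166 members held 2 UMIs of it. Muc2 reached 314 CPM in treated 3 and 0.760 CPM or less in the other 5 tumours. Lypd8 was at 409 CPM in treated 3 and between 14.1 and 44.3 CPM elsewhere. The high Muc2 and Lypd8 of treated 3 both came from the 97 cells described next. Leaving these cells aside, treated 3 had 2.09 CPM of Muc2 and 16.8 CPM of Lypd8 over its other 286 members. Spink4 was high in the 97 cells as well, at 5774 CPM over 83 of them. All 6 rule genes together summed to 345 CPM over the other 286 members, so Spink4 was below its 528 CPM there.

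**Figure D2:**
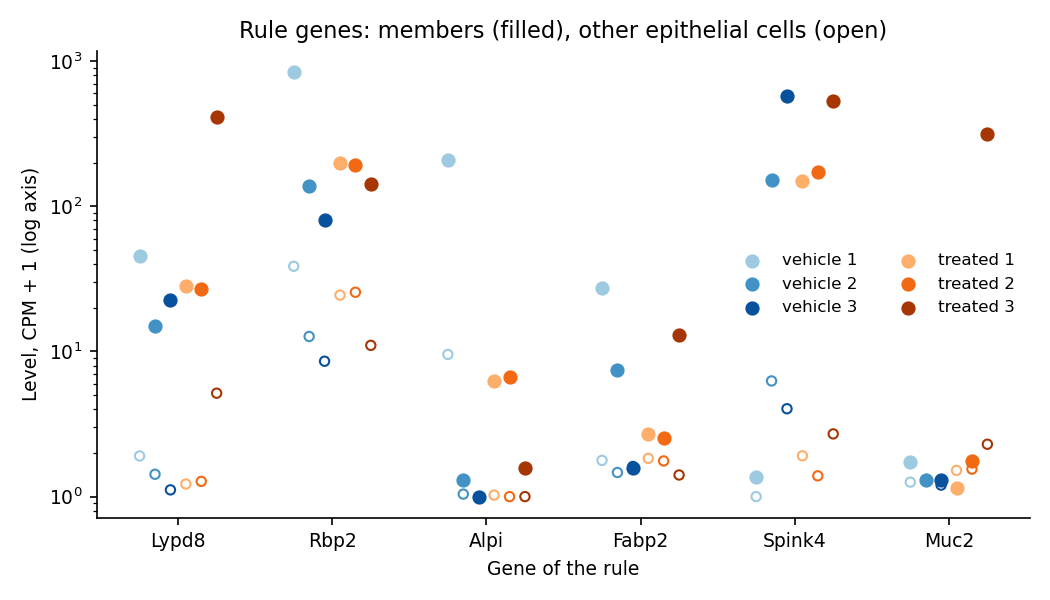
Level of the 6 intestinal genes of the rule (CPM plus 1, log axis) in members (filled circles) and in other epithelial cells with a gastric gene sum under 5 (open circles), 1 circle for each mouse and coloured by mouse. Rbp2 was present in members of all 6 mice, Alpi was high in vehicle 1 only, and Muc2 in treated 3 only; the members were chosen by these genes.

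Free RNA of the rule genes was low in cells that should lack them. Among Ptprc-positive cells with fewer than 3 epithelial UMIs, Rbp2 was seen in 2.86% of 490 cells in vehicle 1 (median 3825 UMIs) and in 0.642% of 3741 cells in treated 3 (median 8926 UMIs). Spink4 and Lypd8 were seen in 1.95% and 3.53% of those cells in treated 3. At 2000 UMIs each, Rbp2 was seen in 71.1% of the vehicle 1 cells of the Alpi cluster and in 0.882% of Ptprc-positive cells of that tumour.

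The 3 absorptive genes of the small intestine are shown with their upstream sequence because CDX factors are known regulators of absorptive cell genes and Cdx2 differed among the members, as described further on. The sequences are the 250 bases before the RefSeq start of each gene (build GRCm38.p6), written on the strand of the gene, with capitals for matches to a CDX motif (GCNATAAA, where N is any base) and an HNF4 motif (CAAAGTCCA), both searched on both strands. Rbp2 lies at chr9:98486115-98509781 on the plus strand in the GENCODE annotation, Alpi at chr1:87098002-87101606 on the minus strand, and Fabp2 at chr3:122895072-122899506 on the plus strand. The windows are chr9:98490287-98490536 for Rbp2, chr1:87101607-87101856 for Alpi and chr3:122894822-122895071 for Fabp2, and that of Rbp2 lies inside the span of the gene, before a later start.
Rbp2: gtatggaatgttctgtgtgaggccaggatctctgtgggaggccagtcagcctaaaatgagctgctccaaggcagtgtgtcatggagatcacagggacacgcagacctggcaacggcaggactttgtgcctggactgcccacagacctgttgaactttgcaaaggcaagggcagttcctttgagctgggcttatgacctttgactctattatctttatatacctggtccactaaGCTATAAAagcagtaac
Alpi: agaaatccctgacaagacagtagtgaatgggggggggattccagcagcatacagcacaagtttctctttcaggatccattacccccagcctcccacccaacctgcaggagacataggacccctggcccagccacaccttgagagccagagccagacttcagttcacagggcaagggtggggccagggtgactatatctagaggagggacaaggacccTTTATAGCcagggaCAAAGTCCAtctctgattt
Fabp2: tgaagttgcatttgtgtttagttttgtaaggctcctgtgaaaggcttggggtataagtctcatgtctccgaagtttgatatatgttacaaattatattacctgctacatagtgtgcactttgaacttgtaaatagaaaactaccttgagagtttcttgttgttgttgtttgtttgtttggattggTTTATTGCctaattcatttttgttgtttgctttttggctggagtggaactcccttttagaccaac

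Each of the 3 windows held 1 CDX match, and the window of Alpi also held an HNF4 match. The CDX match began 17 bases before the start in Rbp2, 33 bases before it in Alpi and 65 bases before it in Fabp2, the latter 2 on the opposite strand, and the HNF4 match of Alpi began 19 bases before the start. The CDX letters overlap the TATA box letters TATAAA in Rbp2 and in Alpi. Of 32851 promoter windows in the table, 2.32% held the CDX letters, 0.384% the HNF4 letters and 5 windows (0.0152%) both. The windows of Lypd8, Muc2, Cdx2, Lgals4 and Cdhr5, which were searched as well, held neither. A match is a string of letters and not a measured binding site.

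Clustering of the members gave 12 clusters, of which 6 drew at least 97% of their cells from 1 tumour, so that a cluster may stand for a tumour as much as for a cell state. The clusters are grouped here into 3 sets, chosen after their genes were seen: 97 colon-gene cells (clusters 7 and 12, all in treated 3), 163 cells with Alpi and Cdx2 (cluster 3, all in vehicle 1), and the remaining 957 cells, 78.6% of all members. The colon-gene set took clusters with at least 50 CPM of Hoxb13, and the Alpi set took those with at least 50 CPM of Alpi. High Hoxb13 and high Alpi in these sets were thus fixed by the cut. Genes named in the sets beyond the naming rule were picked after their values were seen. Counts per gene do not separate alleles, so whether a cell carries the recombined p53 allele was not measured.

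The 97 colon-gene cells carried a broad programme of large intestinal epithelium. Cdx1 was at 166 CPM and Cdx2 at 154 CPM, against 0.226 CPM of Cdx1 and 0.282 CPM of Cdx2 in the other 286 members of the same tumour. Hoxb13, by which the set was picked, was at 306 CPM. Hoxb9 was at 82.0 CPM, and 8 of 39 Hox genes reached 10 CPM, Hoxa13, Hoxa10, Hoxa9 and Hoxa7 among them. In the other sets no Hox gene did. Of the 17 colon genes listed, 14 reached 10 CPM, with Car1 (a carbonic anhydrase of colonocytes) at 536 CPM, Car4 at 738 CPM, the water channel Aqp8 at 681 CPM and the chloride exchanger Slc26a3 at 772 CPM. The same list gave 3 to 5 genes in the remaining members of a tumour and 4 in the Alpi cluster.

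Brush border and goblet genes were both present in these 97 cells. All 14 brush border genes reached 10 CPM, with Cdhr5, a cadherin that joins microvilli, at 538 CPM and the membrane mucin Muc13 at 847 CPM. Guca2a, which encodes guanylin, was at 1615 CPM. Of 20 goblet genes, 19 reached 10 CPM. Part of the goblet genes were concentrated in cluster 12, whose 14 cells had 53562 CPM of the lectin Zg16, 27302 CPM of Tff3 and 16191 CPM of Clca1. In the 83 cells of cluster 7 these were 218, 83.4 and 56.1 CPM, and Muc2 was at 4328 CPM there against 11978 CPM in cluster 12. Other goblet genes went the other way. Spink4, Agr2 and Klk1 were at 5774, 1643 and 1634 CPM in cluster 7 and at 58.7, 103 and 558 CPM in cluster 12. Cluster 12 was thus goblet-like by Zg16, Tff3, Clca1 and Muc2, and goblet genes were not confined to it. Cluster 7 was led by Muc2, Mptx1, Lypd8, Klk1 and Guca2a and is left without a cell type name.

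Of 35 enterocyte genes, 17 reached 10 CPM in the colon-gene cells, against 10 in the Alpi cells. The sugar-digesting enzymes Sis and Lct and the fat-handling genes Apoa4, Apoc3 and Fabp1, which mark the small intestine, had no UMI among the 1243729 UMIs of the colon-gene cells. The Paneth list gave 2 of 11 genes, Nupr1 and Mmp7, neither of which is particular to Paneth cells, and Lyz1 had no UMI. Of 12 crypt genes, 7 reached 10 CPM, against 5 to 7 in the remaining members of a tumour, with Slc12a2 at 318 CPM, Sox9 at 134 CPM and Lgr5 at 8.84 CPM. Mki67, a gene of dividing cells, was seen in 2.33% of the colon-gene cells (exact 95% interval 0.283 to 8.15%) at 2000 UMIs each. In the remaining members of treated 3 it was seen in 7.34% (4.60 to 11%), and these intervals overlap. At full depth the shares were 6.19% and 25.2%. Of 15 genes of G2 and mitosis, 2 reached 10 CPM in the colon-gene cells, with a summed level of 65.9 CPM. In the remaining members of treated 3, 12 of them did, with 530 CPM. The 15 S phase genes summed to 302 CPM in the colon-gene cells and 486 CPM in those members. Summed levels of both lists were thus lower in the colon-gene cells, more so for G2 and mitosis.

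Several genes of the tumour epithelium were lower in the same 97 cells than in the other members of treated 3. Of 20 duct and tumour genes 17 still reached 10 CPM, with a summed level of 3728 CPM against 28278 CPM in those members. Cdkn2a, which encodes p16 and p19Arf, was at 60.3 CPM, against 519 CPM in the remaining members of treated 3 and 54.8 CPM in its Ptprc-positive cells. At 2000 UMIs each, Cdkn2a was seen in 2.33% of 86 colon-gene cells (exact 95% interval 0.283 to 8.15%), in 48.6% of the remaining members and in 5.33% of Ptprc-positive cells. Onecut2, a factor of duct and gastric-type tumour cells, was seen in 5.81%, 85.7% and 1.59% of those cells. Pdx1 was at 1.61 CPM in the colon-gene cells and 35.5 CPM in the remaining members of the tumour. Onecut2 and Pdx1 are also on the list of duodenum and jejunum genes, so they are not particular to tumour cells. Clu was at 933 CPM against 17280 CPM, Krt7 at 115 against 511 CPM and Tff2 at 27.3 against 6045 CPM. Cdkn2a and Tff2 therefore lay near or below the level of Ptprc-positive cells, while Onecut2, Clu and Krt7 lay above it. Epcam (2231 CPM) and Krt19 (1875 CPM) were high.

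Depth and mitochondrial share differed between the colon-gene cells and the other members of treated 3. The colon-gene cells had a median of 5071 UMIs, 1660 genes and 13.0% mitochondrial UMIs, and the remaining members of the tumour a median of 57031.5 UMIs. Of the 97 cells, 4 were among the barcodes with the highest doublet scores, against 53 of the 957 remaining members. The shares at 2000 UMIs given above are at equal depth. Of 16 acinar genes, Cela1 (820 CPM) and Clps (112 CPM) reached 10 CPM in the colon-gene cells and the digestive enzymes Cpa1, Cpb1 and Pnlip had no UMI.

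**Figure D3:**
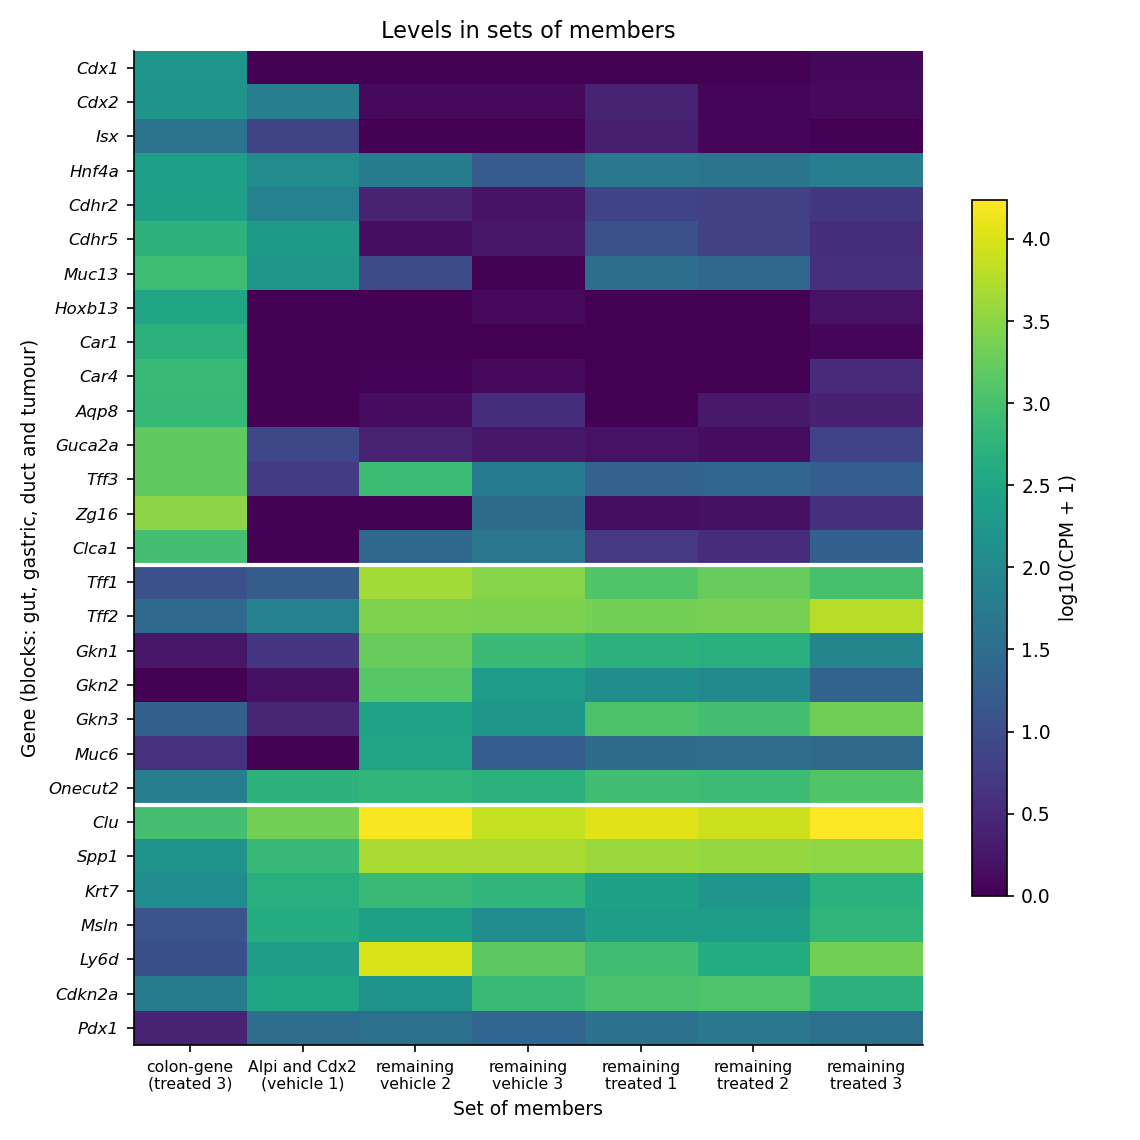
Level of gut, gastric, and duct or tumour genes (rows, in 3 blocks) in the sets of members (columns), as log10 of CPM plus 1 of the summed cells of a set. Gut genes are high in the colon-gene cells, a part of them in the Alpi and Cdx2 cells of vehicle 1, and gastric and tumour genes in the remaining members of the other 5 mice.

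The 163 Alpi cells of vehicle 1 carried Cdx2 and brush border genes side by side with genes of the tumour epithelium. Cdx2 was at 63.0 CPM and seen in 113 of 163 cells (69.3%), while Cdx1 and Hoxb13 had no UMI in any of them, which allows a share of cells with a UMI of up to 1.84%. Cdhr5 was at 205 CPM, Muc13 at 173 CPM and Tmigd1 at 87.5 CPM, and 11 of 14 brush border genes reached 10 CPM. Prap1 was at 316 CPM but did not set these cells apart, as cluster 6 of the remaining members had 840 CPM of it. The calcium-binding protein S100g, known from duodenal absorption, was at 132 CPM against 5.55 to 19.9 CPM in the remaining members of other tumours. The wider lists of the small intestine did not set these cells apart: 10 of 35 enterocyte genes reached 10 CPM, against 7 to 10 in the remaining members of a tumour, and 6 of 13 genes of duodenum and jejunum, against 4 to 7. Sis, Lct and Apoa4 had no UMI, and Fabp1 was at 5.90 CPM. Goblet genes were nearly missing, with 4 of 20 at 10 CPM and no UMI of Agr2, Zg16, Clca1 or Atoh1.

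Genes of the tumour epithelium stood beside them, but some of these are shared with gut. Onecut2 and Pdx1 are also on the list of duodenum and jejunum genes. Onecut2 gave most of that list's 682 CPM in these cells, so neither gene separates gut from tumour here. Cdkn2a was at 313 CPM and Onecut2 at 549 CPM, and at 2000 UMIs each they were seen in 35.2% and 57.2% of 159 cells, against 4.41% and 3.24% of 340 Ptprc-positive cells of vehicle 1. Pdx1 was at 32.1 CPM, Krt7 at 453 CPM, and Msln, a surface protein of pancreatic tumours and mesothelium, at 427 CPM. Of 20 duct and tumour genes, 16 reached 10 CPM, a count that does not separate the sets (17 in the colon-gene cells, 18 or 19 in the remaining members of a tumour), and their summed level was 5746 CPM, against 3728 CPM in the colon-gene cells and 14676 to 35574 CPM in the remaining members. Gastric genes were low, with Tff1 at 16.5 CPM and Gkn1 at 3.61 CPM, and 26 of 163 cells (16.0%) held 5 or more UMIs over Tff1, Tff2, Gkn1, Gkn2, Gkn3 and Muc5ac.

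Other epithelial cells of vehicle 1 outside the rule shared part of this pattern. Cdx2 was at 41.0 CPM in the 494 epithelial cells with neither intestinal nor gastric sums of 5, and in the other 5 tumours those cells had 0.273 CPM of Cdx2 or less. Cdhr5 was at 42.2 CPM in them and Nkx6-3, a homeobox factor of the gastric antrum and duodenum, at 70.1 CPM, against 101 CPM in the members of the tumour. At 2000 UMIs each, Cdx2 was seen in 9.43% of the Alpi cells (exact 95% interval 5.38 to 15.1%) and 7.74% of the other epithelial cells (5.42 to 10.7%), which overlap. Cdx2 was thus present in this tumour on both sides of the rule. Alpi itself, a rule gene that also picked the set, was at 212 against 8.54 CPM. The 494 cells also held RNA of other cell types, with 10601 CPM over 6 B and plasma cell genes and 1434 CPM over 10 fibroblast genes. Members of the tumour had 111 and 166 CPM. The class may therefore include cells that are not epithelial, which limits the comparison of Cdx2 shares.

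Library composition of vehicle 1 differed from that of the other 5. Between 26.1% and 26.3% of its kept barcodes had leading 7 bases that occurred in another library, against 98.6 to 100% for every other pair, so its set of barcodes was not the one the others drew on. The Alpi cells were led by the haemoglobin genes Hbb-bs and Hba-a1 before Alpi and Cdhr5, and 5 red cell genes summed to 826 CPM in them, with 7 neutrophil genes at 214 CPM and 10 macrophage genes at 264 CPM. The part of the barcode set and of red cell and leukocyte RNA in the pattern of vehicle 1 was not tested.

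**Figure D4:**
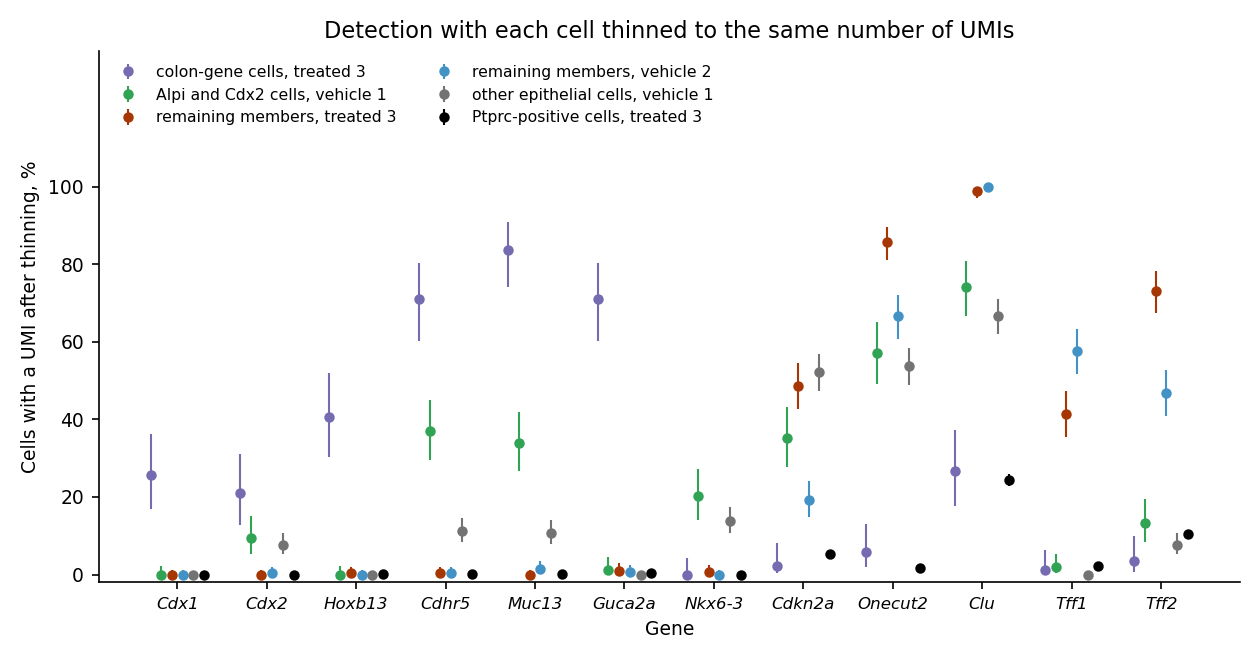
Share of cells with at least 1 UMI of a gene after every cell was thinned to 2000 UMIs (vertical axis, percent) in 6 sets of cells; error bars are exact 95% binomial intervals. Colon-gene cells show Cdx1, Cdx2, Hoxb13 and Guca2a with little Cdkn2a or Onecut2, Alpi and Cdx2 cells of vehicle 1 show Cdx2, Cdhr5 and Nkx6-3 together with Cdkn2a and Onecut2, and the remaining members show Clu, Tff1 and Tff2 without Cdx2.

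As sums over cells, the remaining 957 members carried genes of gastric-type pancreatic tumour cells and hardly any Cdx1 or Cdx2. Cdx2 was between 0.190 and 1.55 CPM in each of the 5 tumours that hold nearly all of them, Cdx1 at 0.226 CPM or less and Muc2 at 2.09 CPM or less. Of 16 gastric-type genes, 14 or 15 reached 10 CPM in every one of these tumours, against 7 in the colon-gene cells and 8 in the Alpi cells. The gastric sum reached 5 UMIs in 657 of them (68.7%). The share differed between tumours: 77.1% in vehicle 2, 36.5% in vehicle 3, 56.9% in treated 1 and 43.3% in treated 2. In treated 3 it was 67.1% over all 383 members (257 cells), and only 1 of those 257 was a colon-gene cell. Among the other 286 members of treated 3 the share was therefore higher than 67.1%. In clusters 2, 8 and 9 the median gastric sum was 3, 0 and 0 UMIs, so the gastric levels came from part of the cells. The leading genes of these clusters are not those of intestine, and the cells are called here by the rule.

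Tff1 was at 4537 CPM in the remaining members of vehicle 2, 2887 CPM in vehicle 3, 1212 CPM in treated 1, 1797 CPM in treated 2 and 999 CPM in treated 3. Tff2 lay between 2210 and 2661 CPM in the first 4 of these tumours and at 6045 CPM in treated 3. Gkn1, which encodes a stomach surface protein, ran from 83.5 CPM in treated 3 to 1810 CPM in vehicle 2, and Gkn3 from 180.5 CPM in vehicle 3 to 2063 in treated 3. Clu, a secreted chaperone of injured epithelium, was at 7316 to 17280 CPM and Spp1, encoding osteopontin, at 3275 to 5094 CPM. Cdkn2a was lowest in vehicle 2 (145 CPM) and highest in treated 2 (1193 CPM). All of these genes were thus present in each of the 5 tumours. Tff1 and Gkn1 were higher in vehicle 2 and 3 than in the treated tumours, while the Alpi cells, which are nearly all members of vehicle 1, lay below every one of them.

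The remaining members entered the rule through Rbp2 or Spink4. Rbp2 led in 481 of them, Spink4 in 440, Lypd8 in 36 and none of Alpi, Fabp2 and Muc2 in any. A split by the rule genes put 510 on the absorptive side (more UMIs of Lypd8, Rbp2, Alpi and Fabp2) and 433 on the goblet side (more of Spink4 and Muc2), with 14 tied. The sides differed in genes the split did not use: Mmp7 was at 205 CPM on the absorptive and 1108 CPM on the goblet side, Lcn2 at 304 and 1882 CPM, Tff1 at 2740 and 1084 CPM, and Cdkn2a at 788 and 343 CPM. Of goblet genes outside the rule, Zg16 was at 0.889 and 8.38 CPM, low on both sides but higher on the goblet side, Fcgbp at 65.0 and 78.7 CPM and Clca1 at 18.0 and 18.9 CPM. The tumours contribute unequally to the sides, so these values are a description.

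Clusters within the remaining members followed tumours and gastric genes. Cluster 1 (199 cells, 196 from treated 3) was led by Mmp7, Tff2, Gkn3 and Lcn2. Cluster 5 (125 cells, 122 from vehicle 2) was led by Gkn2 and Gkn1, with 7965 CPM of Tff1. Cluster 6, with cells of all 6 mice and 34 of 105 from vehicle 2, had 8413 CPM of Tff1 and 269 CPM of Rbp2. Cluster 8 (73 cells, 71 of the 104 members of vehicle 3) had 19.5 CPM of Tff1 and 71.2 CPM of Tff2, so the 2887 CPM of Tff1 in that tumour came from its other members. Clusters 2 and 9 (178 and 68 cells) had 443 and 7.66 CPM of Tff1, and 2714 and 2098 CPM of Vim, a gene of mesenchymal filaments. Cluster 9 (30 cells from treated 1 and 37 from treated 2) had 3.97 CPM of Epcam. Cluster 11 held 16 cells led by collagen genes, 11 of them (68.8%) among the barcodes with the highest doublet scores.

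Against other epithelial cells of the same tumour, members of treated 3, the mouse with most members, were highest in Tff2 (5650 against 18.5 CPM), Gkn3 (1929 against 5.25), Tff1 (934 against 4.84), Dmbt1 (2058 against 23.7) and Agr2 (455 against 2.86). Gastric genes head this order even though the rule asked for intestinal ones, but the comparison cells were defined by a gastric sum under 5, which lowers Tff1, Tff2 and Gkn3 in them. Mptx1, Pigr, Zg16, Phgr1, Ly6d, Muc3 and Reg1 followed. Of the 12, Mptx1 and Zg16 were higher by a log2 ratio over 5 in treated 3 and by no more than 1.49 in any other tumour. Tff2 and all the others were higher in all 6, though in vehicle 1 by a log2 ratio of only 0.0525 for Reg1 and 0.0787 for Ly6d. The lowest were Igkc, Jchain, Ighg2b, Ighg1, Igha, Col3a1, Ighm and Col1a1, genes of plasma cells and fibroblasts, with Igkc at 37.4 against 6915 CPM. The comparison cells of treated 3 thus held RNA of both, with 17896 CPM summed over 10 fibroblast genes against 582 CPM in members.

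Markers of fibroblasts, macrophages and lymphocytes were low in members, and for leukocytes the rule favours this because it asks for no Ptprc. Summed CPM over 10 fibroblast genes lay between 166 and 676 in members of the 6 tumours, over 10 macrophage genes between 32.1 and 259, over 8 T and NK genes between 1.53 and 11.7, and over 6 B and plasma cell genes between 5.72 and 111. The 16 acinar genes summed to 17.6 CPM in vehicle 1 and to 1776 CPM in treated 1, of which Reg1 gave 1691 CPM. Ctrb1, a digestive enzyme, had 9.90 CPM in treated 1, and vehicle 3 had 340 CPM of it. In vehicle 3 the 16 acinar genes summed to 1093 CPM and 10 of them reached 10 CPM. Other lists were not low throughout. The 5 red cell genes summed to 808 CPM in vehicle 1 and 239 CPM in treated 3. The 10 mesothelial genes, which include Msln and the rule gene Krt19, summed to between 1079 and 2482 CPM.

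The treatment comparison asked whether members of drugged tumours differed from those of vehicle tumours, over sums of UMIs per mouse. No gene of 12160 tested passed an adjusted p of 0.05 in edgeR's quasi-likelihood test (0% called), 1298 genes had an unadjusted p under 0.05, and the smallest adjusted p was 0.279. DESeq2 called 206 of 13691 genes (1.5%), 97 higher and 109 lower in treated tumours. Of the rule genes, Rbp2 had a log2 difference of -1.23 (SE 0.80, adjusted p = 0.610 in edgeR) and Spink4 one of -0.20 (SE 1.57, adjusted p = 0.974 in edgeR). Lypd8 had a log2 difference of 2.25 (SE 1.15, adjusted p = 0.521 in edgeR) and Alpi one of -4.46 (SE 2.29, adjusted p = 0.523 in edgeR), with treated 3 and vehicle 1 far above the other tumours. These sums mix the 3 sets in unequal parts, as 163 of 166 members of vehicle 1 are Alpi cells and 97 of 383 of treated 3 are colon-gene cells.

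Genes of cholesterol synthesis had lower levels in treated tumours throughout the list, without passing the edgeR test. All 20 had a negative log2 difference, with a median of -1.18 against -0.04 over all genes tested, and 0 of 20 passed in edgeR (0% of all genes) and 8 of 20 in DESeq2 (1.5% of all genes). Cyp51, a sterol demethylase, was at 35.0, 85.2 and 81.8 CPM in vehicle 1, 2 and 3 and at 21.5, 20.3 and 14.1 CPM in the 3 treated mice (log2 -2.19, SE 0.42, adjusted p = 0.347 in edgeR). Fdps, which makes farnesyl diphosphate, was at 99.8, 245 and 125 CPM in vehicle and 68.3, 80.0 and 44.3 CPM in treated tumours (log2 -1.59, SE 0.39, adjusted p = 0.371 in edgeR). Neither gene overlapped between the groups. Msmo1 did not overlap either, whereas Ebp and Hmgcs1 did. After TMM scaling 13 of 20 genes were lower in every treated than in every vehicle tumour, against 8.68% of all genes tested, and 12 of 20 in plain CPM, against 2.57%.

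**Figure D5:**
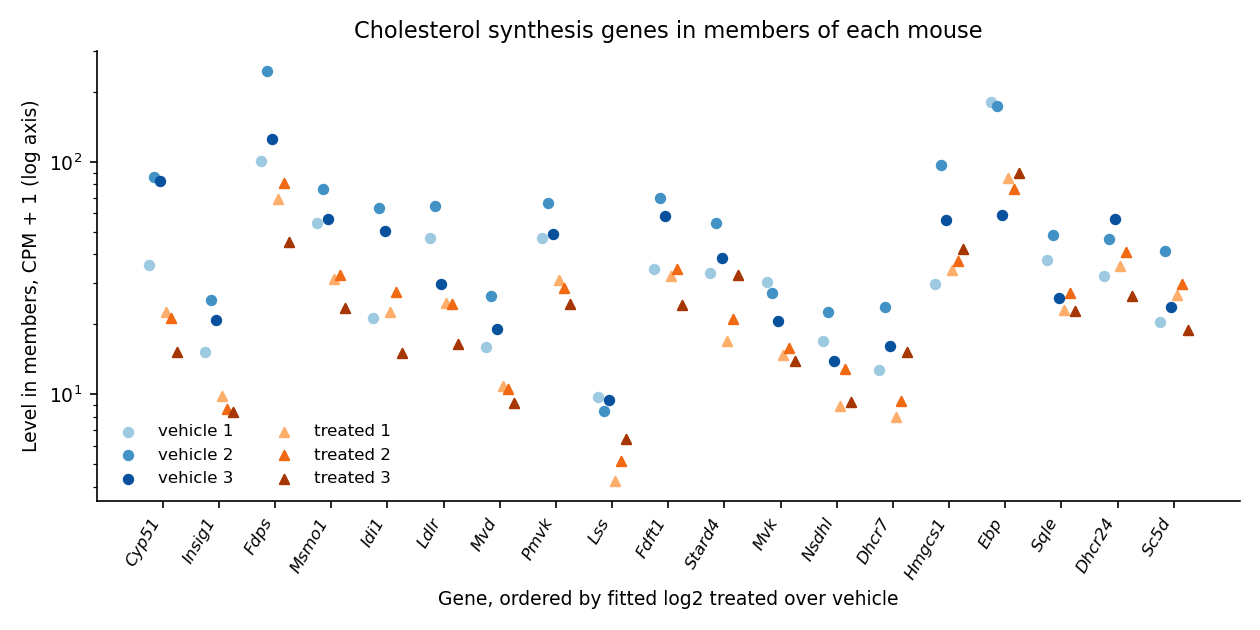
Level of cholesterol synthesis genes (CPM plus 1, log axis) in the members of each mouse, vehicle as circles and treated as triangles, ordered by the fitted log2 difference. Cyp51, Fdps and Msmo1 are lower in every treated mouse than in every vehicle mouse, and Hmgcs1 and Ebp overlap.

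Scaling moved the balance of directions over all genes. In plain CPM the groups did not overlap for 2676 genes that were higher (22.0%) and 313 that were lower in treated tumours (2.57%), and after TMM scaling for 1169 (9.61%) and 1056 (8.68%). MHC class II genes had negative log2 differences in 6 of 6 tested (median -1.81), with 5 of 6 not overlapping after TMM scaling and 0 in plain CPM, and Cd74 at 136, 85.3 and 29.2 CPM in vehicle and 39.4, 21.5 and 53.7 CPM in treated tumours. None of the 6 passed in edgeR or in DESeq2. Markers of leukocytes moved with them: 9 of 9 macrophage genes tested had a negative log2 difference (median -1.57, 3 of 9 lower without overlap after TMM scaling), as did 2 of 2 B and plasma cell genes (median -2.19) and 2 of 3 neutrophil genes (median -4.02), with 0 passing in edgeR and 1 neutrophil gene in DESeq2. Their part in the MHC class II values was not tested. Genes that read out MAPK signalling, the pathway below MEK, had a positive log2 difference in 10 and a negative one in 13 of 23, with a median of -0.14 and 0 passing in either tool. Lysosome and autophagy genes were positive in 9 and negative in 15 of 24 (median -0.18, 0 passing in either tool).

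Treated 1 and treated 2 resembled each other more than other pairs. The SD of the log2 ratio of their members' levels was 0.189, against 0.392 to 0.716 for the other 14 pairs. The labels name them as separate mice. With their sums added as 1 sample, edgeR called 0 genes, and without treated 3 it called 3, all higher in treated tumours.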

How the data were processed

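The deposited files are 6 count matrices of raw UMIs per gene and barcode, made by the authors with Cell Ranger 5.0.1 on mm10, per the submitters' processing notes. No source used here says whether doublets or free RNA were removed. The files list 32285 genes. Members and gene lists were chosen with earlier results of these data known. Levels are CPM of summed UMIs. Coordinates of genes are from GENCODE vM21 and promoters from RefSeq (GRCm38.p6), which held no Spink4 entry. Scrublet ranked doublets within each library, and the highest 0.8% per 1000 barcodes were left out as an alternative only, 3244 barcodes in all. Members were clustered in scanpy 1.11.5 (1000 variable genes, 15 components, 15 neighbours, Leiden resolution 0.5). The treatment test ran on UMI sums of 6 mice in edgeR 4.0.16 (filterByExpr, TMM, robust quasi-likelihood fit, Benjamini-Hochberg over all genes tested), with DESeq2 1.42.0 as an alternative. Tested on simulated data for this comparison (12160 genes), edgeR recovered 0% of genes changed 2-fold, 61.5% at 4-fold and 87.0% at 8-fold. Named are the 11 rule genes, up to 5 genes of highest mean CPM of a list described, and the 12 highest and 8 lowest ratios in treated 3 among genes of at least 100 CPM (pseudocount 5 CPM). Same-numbered treated and vehicle mice share only a number. P-values measure the spread between mice. Of the genotype and of the genes listed, 1 item each is not reported here.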

Additional observations from a re-analysis of the deposited data

How the results depend on the processing

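The difference in the share of members between treated and vehicle tumours kept its sign in 8 of 15 alternatives and the lowest exact permutation p was 0.2, where both the colon-gene and the Alpi clusters were left out (2.14 points). It was -0.193 percentage points with at least 1000 UMIs per barcode, -0.290 with at most 10% mitochondrial UMIs, -0.132 after thinning to 2000 UMIs and -0.343 without the colon-gene clusters, an alternative added after the data were seen. Leaving out 1 mouse gave -1.27 to 2.07, and epithelial cells as denominator gave 4.86. The count of genes called for treatment was 0 in 13 of 15 alternatives. It was 206 with DESeq2, of which the cause was not tested, and 0 to 3 with 1 mouse left out, the 3 without treated 3. With a replicate block edgeR called 0 genes (smallest adjusted p = 0.0938). The correlations of deviations between same-numbered mice were -0.05, -0.19 and 0.00, so the numbers were not used as pairs. Of 93 comparisons of named gene levels, 89 moved by less than 1 SD between mice. Under the mean of CPM per cell, Lypd8 moved from 90.3 to 353 CPM, Zg16 from 40.0 to 318 and Phgr1 from 218 to 605, and without doublets Col1a1 from 71.8 to 32.8. Muc2 in treated 3 went from 314 to 945 CPM under the mean per cell, which is within its SD because 1 mouse holds nearly all of it. Depth limits what the rule can find, since few members remain at 2000 UMIs.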
